A study of Arabidopsis thaliana with 6 samples.

Results

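WRKY proteins are plant transcription factors named after the conserved amino acid stretch at the heart of their DNA-binding domain, which recognises W-box elements in promoters. In Arabidopsis they are best known for setting the strength of immune responses, among them the responses to salicylic acid, and for roles in leaf senescence, heat and nutrient stress. They are classed by their domains into group I, with a pair of WRKY domains, group II, with 1 domain and the subgroups IIa to IIe, and group III, with 1 domain and a different zinc finger. The genes examined here are 50 WRKY genes, picked by locus identifier from the 33557 loci of the deposited table. RefSeq annotates 72 genes as WRKY, and the other 22 are not among the 50.

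Their messenger RNA levels were compared between wild-type plants of the Col-0 accession and the quadruple mutant camta1/2/3/sid2. The mutant carries lesions in CAMTA1, CAMTA2 and CAMTA3, calmodulin-binding transcription factors that restrain immunity at warm temperature, and in SID2, which encodes the salicylic acid enzyme isochorismate synthase 1 (ICS1). The labels give no alleles, and plants with fewer of these lesions are not analysed here, so the 4 lesions cannot be told apart. Both genotypes grew on soil at 22 °C in 12 h days under 100 to 120 µmol per square metre per second of light, and the whole aerial part was harvested at 21 days after germination and zeitgeber time 12, which is dusk. The table gives 1 FPKM value per genotype (fragments scaled to transcript length and library size), which the authors combined from 3 libraries each, so no difference below has a replicate check, an error or a p-value, and the depth is unknown. Transcripts of the mutated genes were lower in camta1/2/3/sid2, CAMTA1 at 13.6 FPKM in wild-type and 3.30 in mutant plants, CAMTA3 at 9.94 and 2.68, CAMTA2 at 9.25 and 6.32 and ICS1 at 4.56 and 3.73. CAMTA1 and CAMTA3 differed by more than 1.5-fold, CAMTA2 and ICS1 by less, and 64.6% of all analysed loci were lower in the mutant. The leaf markers were high in both genotypes, and all 4 differed by more than 1.5-fold, where 96.2% of all analysed loci did not. LHCB3 was 1760 and 815 FPKM and LHCB1.2 1623 and 775, while RCA was 1944 and 3121 and RBCS2B 3096 and 5063. The part of these differences in the WRKY results was not tested. Of the root markers, RHD6 was listed at 0 in both genotypes, COBL9 was at 0.0151 and 0.0401, CASP1 at 0.940 and 1.57 and PYK10 at 51.6 and 55.8 FPKM.

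The sequences that define the family are shown first. Each line holds the 21 coding bases of the conserved core of a WRKY domain, read from the RefSeq gene model on the TAIR10.1 assembly on the strand of the gene, with the sixth codon in capitals. That codon is where the members differ in kind.
WRKY70 (group III, from codon 125): tggaggaaatatggaCAAaag
WRKY38 (group III, from codon 115): tggaggaaatatggtCAAaag
WRKY33, first domain (group I, from codon 189): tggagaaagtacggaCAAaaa
WRKY33, second domain (group I, from codon 367): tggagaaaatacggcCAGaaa
WRKY50 (group IIc, from codon 118): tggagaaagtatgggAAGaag
WRKY51 (group IIc, from codon 115): tggaggaagtatggcAAGaaa
All 10 group I members held this core stretch in 2 places and the other 40 members in 1, 60 stretches in all. WRKY23, which the RefSeq note places in group I and the usual classification in group IIc, held 1 stretch and is counted in group IIc here. The sixth codon encoded glutamine in 58 of them. The exceptions were WRKY50 and WRKY51, where it encoded lysine. Coding length ran from 438 bases in WRKY75 to 2064 in WRKY2.

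The members spanned a wide range of levels, and few of them were high. WRKY70 led in both genotypes, at 96.6 FPKM in the wild type, above 92.2% of all analysed loci, and 52.0 in mutant plants. It was followed in the wild type by WRKY11 at 36.4, WRKY54 at 25.4, WRKY15 at 20.2 and WRKY39 at 18.1 FPKM. At the other end WRKY61 was at 0.0201 and WRKY31 at 0.0322 FPKM. No member was listed at 0. Of the 50 members, 38 reached 1 FPKM in at least 1 genotype, the condition for analysis, and 12 did not. Just inside this limit lay WRKY42, at 0.889 in wild-type and 1.10 in mutant plants, and just outside it WRKY62, at 0.884 and 0.196. The top of the order was largely shared: 9 of the 10 highest members in the wild type were also among the 10 highest in the mutant. Summed over the 50 members, FPKM was 375 in wild-type and 310.0 in mutant plants, and WRKY70 alone made up 25.8% and 16.8% of these sums. Without WRKY70 the sums were 278 and 258.

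**Figure D1:**
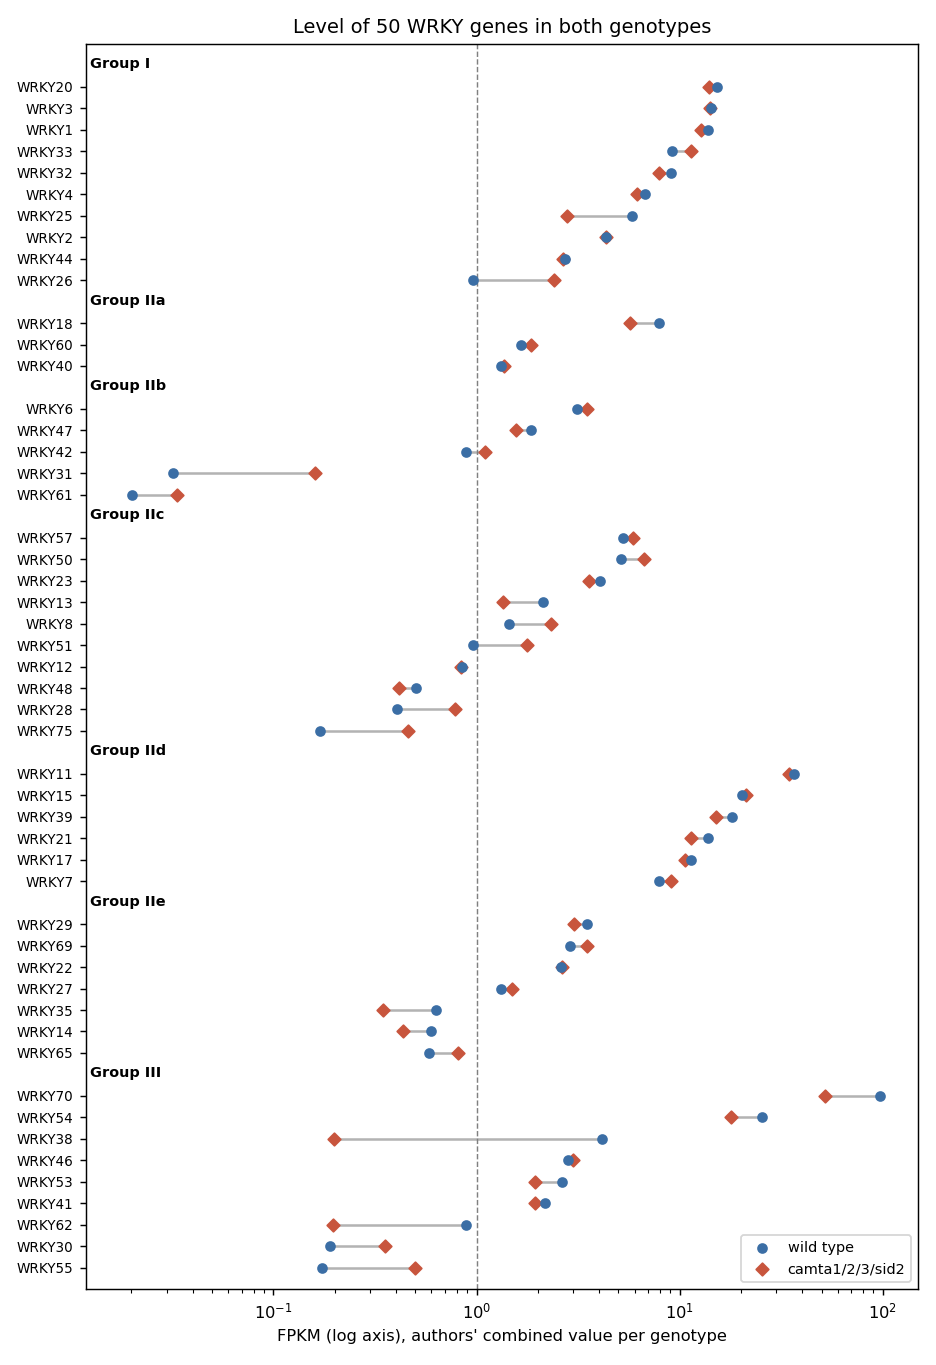
FPKM of the 50 WRKY genes on a log axis, with circles for the wild type and diamonds for camta1/2/3/sid2, sorted within each group by the wild-type level; each point is the authors' combined value of 3 libraries, and the dashed line marks 1 FPKM. Most pairs of points lie close together, while WRKY38 lies at 4.14 and 0.198 FPKM and WRKY70 at 96.6 and 52.0.

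Most analysed WRKY genes lay within 1.5-fold between the genotypes, on the log2 ratio scale given next. That was 34 of 38 (89.5%), a smaller share than the 96.2% of all analysed loci. The members were chosen with earlier results of these data known. They also lay lower in level, with a wild-type median of 4.25 FPKM against 11.6 for all analysed loci. The members beyond 1.5-fold lay on both sides, in numbers that depended on the scale and on the 1 FPKM condition. The log2 ratio used here is the log2(FPKM + 1) of the mutant minus that of the wild type, a scale on which differences between low values shrink. Folds named without that scale are plain ratios of FPKM. Of the 38 analysed members, 1 was at least 2-fold lower on the log2 ratio scale, where 0.69% of all 18547 analysed loci were, and 0 were at least 2-fold higher, where 0.787% of all loci were. At the milder limit of 1.5-fold, 3 members were lower, WRKY38, WRKY70 and WRKY25, against 1.99% of all loci, and 1 was higher, WRKY26, against 1.81%. WRKY38 reached 1 FPKM only in the wild type and WRKY26 only in the mutant. Each was thus analysed only through the genotype where it was higher. With a pseudocount of 0.1 the counts past 1.5-fold were 4 lower and 3 higher. The share of all loci past 1.5-fold was not computed for this setting or the next. Over all 50 members as plain ratios, a setting that also drops the 1 FPKM condition, they were 6 lower and 9 higher. Among the lower, WRKY35 and WRKY62 were under 1 FPKM in both genotypes. Among the higher, so were WRKY28, WRKY30, WRKY31, WRKY55, WRKY61 and WRKY75. Which side held more thus turned when the scale and the condition changed together. By direction alone, 22 members were lower and 16 higher, while 64.6% of all loci were lower and 35.4% higher. The median log2 ratio of the members was -0.05, close to the -0.06 of all analysed loci, and it became 0.01 once all ratios were shifted to a median of 0. After that shift 19 members were higher, as WRKY2, WRKY3 and WRKY44 changed sign. In plants sampled whole, fewer cells of a type and less RNA per cell cannot be told apart.

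**Figure D2:**
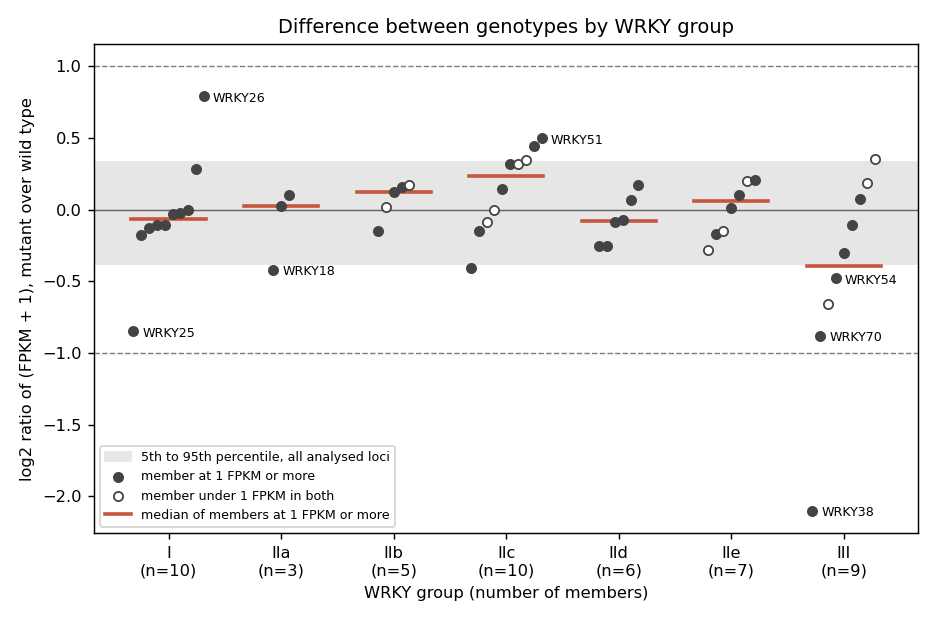
Log2 ratio of (FPKM + 1), mutant over wild type, for each WRKY gene by group; filled points reached 1 FPKM in at least 1 genotype, open points did not, red bars are medians of the filled points, the grey band spans the 5th to 95th percentile of all analysed loci (-0.38 to 0.33), and dashed lines mark 2-fold. WRKY38 stands alone beyond 2-fold at -2.10, and group III has the lowest median at -0.39.

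Group III held the members with the lowest ratios. Of its 9 members 6 were analysed, 5 of them lower and 1 higher, and their median log2 ratio was -0.39. WRKY38 (AT5G22570) and WRKY62 (AT5G01900) are close relatives induced by salicylic acid through the receptor NPR1, and they dampen basal defence. WRKY38 was 4.14 FPKM in wild-type and 0.198 in mutant plants, 20.9-fold lower with a log2 ratio of -2.10, and only 40 of the analysed loci had a lower ratio. It dropped from rank 20 among the 50 members to rank 47. WRKY62 was 0.884 and 0.196 FPKM, a plain 4.50-fold difference at levels under the filter. WRKY38 stood 4.69-fold above WRKY62 in the wild type and 1.01-fold above it in the mutant, where both were low.

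WRKY70 (AT3G56400) and WRKY54 (AT2G40750) form the second close pair of group III. WRKY70 acts where salicylic acid and jasmonate signalling cross, and together with WRKY54 it restrains salicylic acid accumulation and leaf senescence. WRKY70 was 96.6 FPKM in wild-type and 52.0 in mutant plants, 1.86-fold lower with a log2 ratio of -0.88. WRKY54 was 25.4 and 17.9 FPKM, 1.42-fold lower with a log2 ratio of -0.48, which lies below the 5th percentile of all loci at -0.38. Both members of the pair therefore stood in the low tail, and WRKY70 remained the higher of them in each genotype.

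The other group III genes were lower in level and did not share one direction. WRKY53, an activator of leaf senescence, was 2.64 FPKM in wild-type and 1.95 in mutant plants, with a log2 ratio of -0.30. Its closest relative here, WRKY41, was 2.16 and 1.94. WRKY46, which acts with WRKY53 and WRKY70 in basal resistance, was 2.81 and 3.00 FPKM. WRKY30, a gene induced by pathogens and oxidative stress, was 0.190 and 0.355, and WRKY55 was 0.173 and 0.496, both under the filter and both higher in the mutant. WRKY55 and WRKY54 are direct neighbours on chromosome 2, on opposite strands with their ends 919 bases apart, and the level of WRKY55 was higher and that of WRKY54 lower in the mutant.

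The windows upstream of the 4 lowest ratios of group III are printed because CAMTA factors and WRKY factors bind known short elements. Each line gives the 250 bases before the annotated gene start on the strand of the gene (RefSeq, TAIR10.1). Capitals mark the W-box core TTGAC, on either strand (GTCAA where it lies on the other), and the CAMTA core CGCG, which reads the same on both strands.
WRKY38 (chr5:7496991-7497240, minus strand): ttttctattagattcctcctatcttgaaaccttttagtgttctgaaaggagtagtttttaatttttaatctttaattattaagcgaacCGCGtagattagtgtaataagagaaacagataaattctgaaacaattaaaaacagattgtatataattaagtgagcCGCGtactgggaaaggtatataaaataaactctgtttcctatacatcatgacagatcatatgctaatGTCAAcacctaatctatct
WRKY62 (chr5:352096-352345, minus strand): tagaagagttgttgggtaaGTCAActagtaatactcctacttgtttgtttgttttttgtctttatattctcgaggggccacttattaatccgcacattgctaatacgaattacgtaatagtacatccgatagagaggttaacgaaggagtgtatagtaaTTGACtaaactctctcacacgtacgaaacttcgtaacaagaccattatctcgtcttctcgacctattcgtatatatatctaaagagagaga
WRKY54 (chr2:17002529-17002778, minus strand): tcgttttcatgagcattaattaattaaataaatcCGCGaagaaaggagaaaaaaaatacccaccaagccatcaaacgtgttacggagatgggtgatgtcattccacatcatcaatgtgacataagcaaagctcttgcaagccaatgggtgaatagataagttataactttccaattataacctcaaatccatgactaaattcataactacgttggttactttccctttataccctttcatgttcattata
WRKY70 (chr3:20910624-20910873, minus strand): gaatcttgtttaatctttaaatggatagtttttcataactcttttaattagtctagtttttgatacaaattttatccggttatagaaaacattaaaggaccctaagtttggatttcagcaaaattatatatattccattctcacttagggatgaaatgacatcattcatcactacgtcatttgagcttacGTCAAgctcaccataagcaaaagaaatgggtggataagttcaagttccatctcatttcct
The WRKY38 window held 2 CAMTA cores, starting 162 and 86 bases before the gene, and 1 W-box core at 19 bases. The WRKY54 window held 1 CAMTA core and no W-box core, the WRKY70 window 1 W-box core and the WRKY62 window 2. No match of one element overlapped a match of the other in these 4 windows.

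Across all members, 26 of 50 windows (52.0%) held a W-box core, against 44.9% of the 27443 windows of the same length before nuclear protein-coding genes. In group III it was 8 of 9. The CAMTA core was in 6 of 50 windows (12.0%), against 10.1% of all windows. These 6 were WRKY1, WRKY25, WRKY38, WRKY44, WRKY48 and WRKY54, of which WRKY48 was under the filter. All 5 analysed ones were lower in the mutant, with a median log2 ratio of -0.48, while the 33 analysed members without the core divided into 16 higher and 17 lower. This comparison was added after the values were seen, and WRKY38 was analysed only through the wild type, where it was higher. WRKY44 changed sign when the ratios were shifted to a median of 0, and the WRKY25 window overlaps a neighbouring gene. Over all analysed protein-coding loci, 67.4% of those with a CAMTA core and 64.9% of those without were lower, and 2.36% and 1.66% were at least 1.5-fold lower. The median log2 ratios of these loci were -0.07 with the core and -0.06 without. For the W-box core the shares lower were 65.6% with and 64.9% without. A match of letters is a description of the window and not a binding site.

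**Figure D3:**
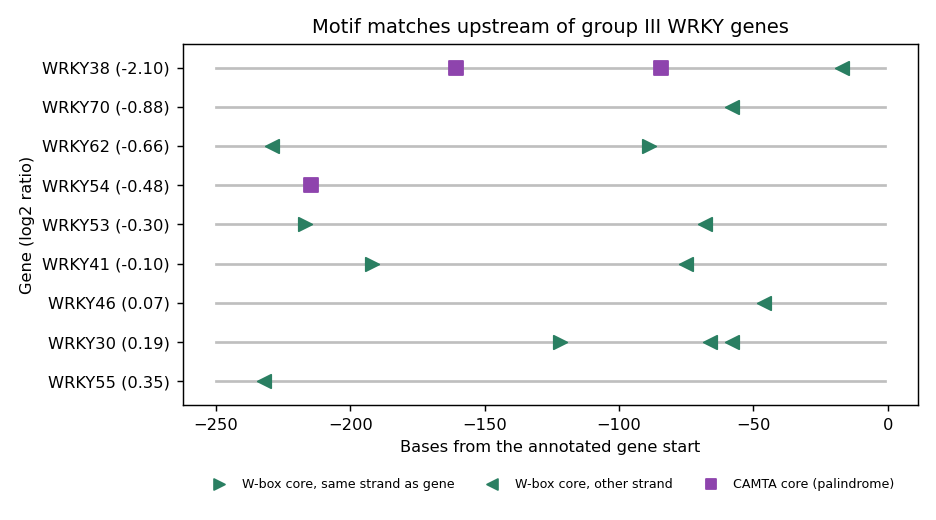
Positions of W-box cores (triangles, pointing right on the strand of the gene and left on the other) and CAMTA cores (squares) in the 250 bases before the annotated start of the 9 group III WRKY genes, ordered by log2 ratio, which stands beside each name. WRKY38 and WRKY54 have CAMTA cores, and every gene but WRKY54 has at least 1 W-box core.

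Group I contained both a member well below and a member well above the rest. WRKY25, WRKY26 and WRKY33 are related genes that act together in heat tolerance, and WRKY33 also drives camalexin synthesis against fungi as a substrate of MAP kinases. WRKY25 (AT2G30250) was 5.82 FPKM in wild-type and 2.79 in mutant plants, 2.09-fold lower with a log2 ratio of -0.85. WRKY26 (AT5G07100) was 0.962 and 2.40, 2.49-fold higher with a log2 ratio of 0.79, and 198 of the analysed loci had a higher ratio. WRKY33 (AT2G38470) was 9.19 and 11.4 FPKM, 1.24-fold higher. WRKY25 thus stood 6.05-fold above WRKY26 in the wild type and 1.16-fold above it in the mutant.

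The remaining 7 group I genes were close between the genotypes. WRKY20 was 15.3 FPKM in wild-type and 13.9 in mutant plants, WRKY1 13.8 and 12.7, and WRKY32 9.12 and 7.93. WRKY3 and WRKY4, which contribute to resistance to necrotrophic fungi, were 14.3 and 14.1 FPKM and 6.77 and 6.20. WRKY2, known from embryo patterning and pollen development, was 4.36 and 4.35, and WRKY44 (TTG2), a regulator of leaf hairs and seed coat, was 2.74 and 2.67. The group as a whole had 8 lower and 2 higher members and a median log2 ratio of -0.07, which was -0.01 after the shift to a median of 0.

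Group IIa holds 3 genes whose proteins pair with each other and modulate defence and abscisic acid responses. WRKY18 (AT4G31800) was 7.94 FPKM in wild-type and 5.69 in mutant plants, with a log2 ratio of -0.42. WRKY40 was 1.31 and 1.36, and WRKY60 was 1.66 and 1.86. WRKY18 was the highest of the trio in both genotypes and the one that was lower in the mutant.

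Group IIc had a median log2 ratio of 0.23 over 6 analysed members, 4 higher and 2 lower. This was the highest of the 7 group medians on that scale, whereas with plain ratios and no filter group IIb, at 0.31, passed group IIc, at 0.27. WRKY50 (AT5G26170) and WRKY51 (AT5G64810), the pair with the lysine codon shown above, mediate the repression of jasmonate signalling by salicylic acid. WRKY50 was 5.14 FPKM in wild-type and 6.66 in mutant plants, and WRKY51 was 0.963 and 1.77, with log2 ratios of 0.32 and 0.50. WRKY8, which acts in defence and salt tolerance, was 1.45 and 2.34, with a log2 ratio of 0.45. WRKY51 and WRKY8 lay above the 95th percentile of all loci, at 0.33. WRKY51 reached 1 FPKM only in the mutant, so it was analysed, and entered the group median, only through the genotype where it was higher. With no filter, over all 10 members of the group, 6 were higher and 4 lower, and the median was also 0.23.

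Other group IIc genes were mixed. WRKY57, linked to drought tolerance and senescence, was 5.25 FPKM in wild-type and 5.90 in mutant plants. WRKY23, which acts in auxin-dependent root development, was 4.08 and 3.57, and WRKY13, a regulator of stem cell wall formation, was 2.12 and 1.35, with a log2 ratio of -0.41. WRKY12, which acts in stem pith, was 0.848 and 0.843, and WRKY48, a repressor of basal defence, was 0.504 and 0.414. WRKY28, an activator of ICS1, was 0.404 and 0.781, and WRKY75, a factor of phosphate starvation and senescence, was 0.170 and 0.461. These last 4 were under the filter.

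Group IId is the subgroup whose proteins carry a calmodulin-binding region. It held well-expressed genes in both genotypes, with a median of 16.0 FPKM in wild-type and 13.2 in mutant plants. All 6 lay within 1.5-fold, where 96.2% of all analysed loci did. WRKY11, a negative regulator of basal resistance, was 36.4 and 34.6 FPKM, and its close relative WRKY17 was 11.3 and 10.6. WRKY15, which acts in oxidative and salt stress, was 20.2 and 21.3, and WRKY7 was 7.90 and 9.04. WRKY39, linked to heat tolerance, was 18.1 and 15.1, and WRKY21 was 13.8 and 11.4, each with a log2 ratio of -0.25. The median log2 ratio of the group was -0.08, over 4 lower and 2 higher genes.

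Groups IIb and IIe, with 3 and 4 analysed members, showed none beyond 1.5-fold, where 96.2% of all analysed loci lay within it. In group IIb, WRKY6, a factor of senescence and phosphate balance, was 3.13 FPKM in wild-type and 3.51 in mutant plants, and WRKY42, which acts with it in phosphate balance, was 0.889 and 1.10. WRKY47 was 1.85 and 1.57. WRKY31 was 0.0322 and 0.160, a 4.97-fold ratio far under the filter, and WRKY61 was 0.0201 and 0.0336. In group IIe, WRKY22 and WRKY29, known as outputs of the flagellin-triggered kinase cascade, were 2.59 and 2.62 FPKM and 3.52 and 3.01. WRKY27, which affects bacterial wilt symptoms, was 1.32 and 1.49, and WRKY69 was 2.90 and 3.51. WRKY14, at 0.594 and 0.436, WRKY35, at 0.635 and 0.348, and WRKY65, at 0.581 and 0.812, were under the filter.

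Low levels set the reading of several of these folds. Of the 12 members under the filter, 4 differed by at least 2-fold as a plain ratio, namely WRKY31, WRKY55, WRKY62 and WRKY75. That is 33.3%, where 27.1% of all 4310 loci under the filter and above 0 in both genotypes did so. Over all members and with no pseudocount, 4 were at least 2-fold higher, against 3.55% of loci above 0 in both genotypes, and 3 were at least 2-fold lower, against 3.19%. The higher 4 were WRKY26, WRKY31, WRKY55 and WRKY75, and the lower 3 were WRKY25, WRKY38 and WRKY62.

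Reads shared between relatives could move a value from one gene to another, and the sources used here do not say how such reads were treated. Among 17 pairs of related members, aligned coding sequences were identical at 64.3% to 82.0% of positions, and no identical run was longer than 36 bases. WRKY38 and WRKY62 were identical at 68.4%, with a longest identical run of 16 bases. WRKY54 and WRKY70 were identical at 72.2%, with a longest run of 35 bases. The read length is not given, and whether shared reads moved any value was not tested.

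Proteins that act with WRKY factors were looked at next, from lists of known kinases, partners and targets. MAP kinases phosphorylate some WRKY factors. Of 8 genes of that cascade 7 were lower and 1 higher, where 64.6% of all analysed loci were lower. All 8 lay within 1.5-fold, where 96.2% of all analysed loci did. Their median log2 ratio was -0.21 beside the -0.06 of all loci. MPK3 was 79.9 FPKM in wild-type and 81.0 in mutant plants, MPK4 41.8 and 34.1, and the kinase MKK2 62.1 and 43.9. VQ-motif proteins bind WRKY domains and change their activity. Of 9 analysed ones 4 were higher and 5 lower, against 35.4% and 64.6% of all analysed loci, and the median was -0.03. SIB1, which binds WRKY33, was 56.9 and 34.7 FPKM, with a log2 ratio of -0.70, whereas its paralogue SIB2 was 36.4 and 43.0. VQ10 was 1.08 and 3.48, with a log2 ratio of 1.11, and MKS1, a partner of WRKY25 and WRKY33, was 11.1 and 8.83.

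Genes known as direct WRKY targets did not move as one. Of 9, 6 were analysed, 4 higher and 2 lower, where 35.4% of all analysed loci were higher and 64.6% lower. The median log2 ratio was 0.29. Over all 9, with no filter, it was 0.06, with 5 higher and 4 lower. Among the 6, 2 were at least 2-fold higher, where 0.787% of all analysed loci were. Those were the camalexin genes bound by WRKY33, PAD3 at 0.919 FPKM in wild-type and 7.22 in mutant plants, and CYP71A13 at 0.649 and 3.39. Both reached 1 FPKM only in the mutant. The ethylene synthesis gene ACS6, another WRKY33 target, was 3.99 and 5.65, and ACS2 was under the filter at 0.118 and 0.164. FRK1, the flagellin-induced kinase gene downstream of WRKY22 and WRKY29, was 0.188 and 0.169. The immune regulator EDS1 was 11.1 and 9.67 FPKM and JAZ8, a jasmonate repressor, 1.43 and 1.74; both are bound by WRKY40. NPR1, with W-boxes in its promoter, was 17.6 and 14.8, and PR1 was under the filter at 0.909 and 0.477. Whether the levels of WRKY genes and of these targets are linked was not tested.

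**Figure D4:**
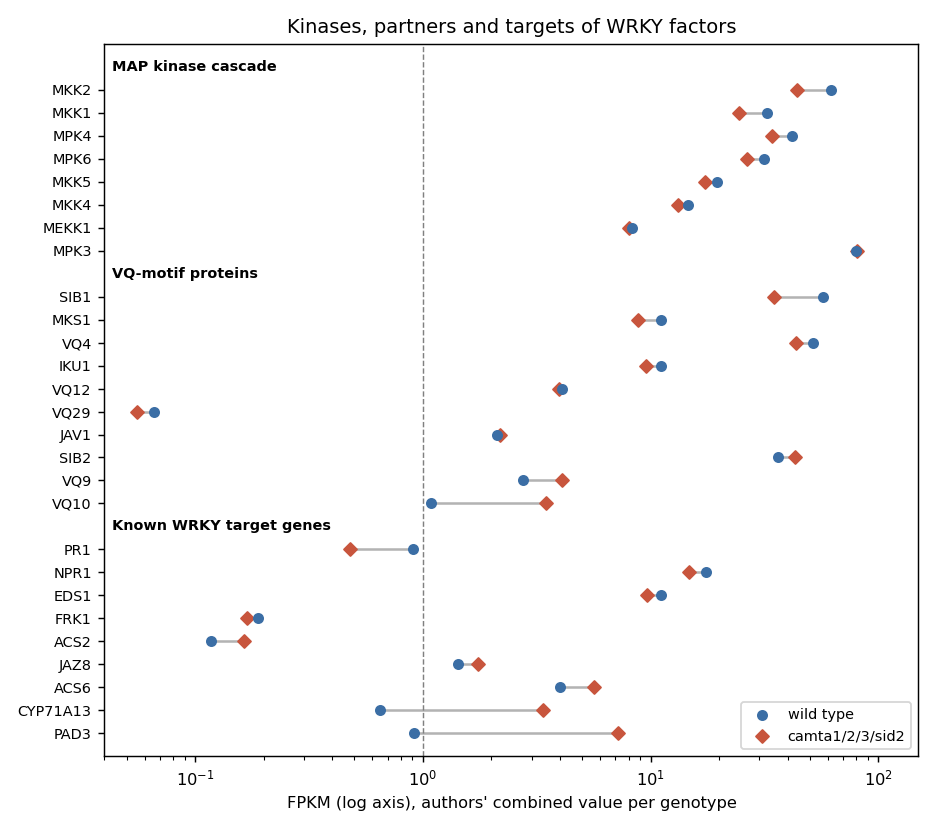
FPKM on a log axis of MAP kinase cascade genes, VQ-motif protein genes and known WRKY target genes, with circles for the wild type and diamonds for camta1/2/3/sid2, ordered within each list by log2 ratio; the dashed line marks 1 FPKM. PAD3, at 0.919 and 7.22, and CYP71A13, at 0.649 and 3.39, have the widest gaps among the targets, and SIB1 and VQ10 among the partners.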

How the data were processed

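Messenger RNA of the aerial part was sequenced in 6 libraries, 3 per genotype. The authors deposited FPKM, 1 combined value per genotype and locus, per the file headers. TopHat 1.4.1, Cufflinks 2.1.1 and Cuffdiff, with the build TAIR10, are named per the submitters' processing notes. The sources used here do not state how libraries were combined, the read length or the strandedness. FPKM is no count, so no count model was used, and with 1 value per genotype no test was possible. The log2 ratio is log2(mutant FPKM + 1) minus log2(wild-type FPKM + 1), over loci with at least 1 FPKM in at least 1 genotype. WRKY groups follow the usual classification. Members, lists and named genes were chosen with earlier results of these data known; every member is named, other genes come from the fixed lists, and the comparison by promoter core was added after the values were seen. All 50 members matched RefSeq TAIR10.1 by locus; the files hold no coordinates, and coordinates and sequence here are those of TAIR10.1. Coding sequences were aligned with Biopython 1.88 (match 1, mismatch -1, gap opening -3, extension -0.5). Python 3.11.15, numpy 2.4.6, pandas 2.3.3 and matplotlib 3.10.9 were used. The ratio step was run on values simulated without noise, with known differences put into loci at 5 FPKM or more. The motif search was run on short made-up strings. These runs check the code only and say nothing about low levels or the spread between libraries.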

Additional observations from a re-analysis of the deposited data

How the results depend on the processing

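The table has 1 value per genotype, so leaving out replicates could not be run, and no paired analysis was possible because the columns carry no replicate numbers. The count at least 2-fold higher (0) was 1 with a pseudocount of 0.1 and 4 with plain ratios and no filter. The count at least 2-fold lower (1) was 2, and 3, under the same settings, and 0 among members at 5 FPKM or more, which drops WRKY38. The count at least 1.5-fold higher (1) was 3 with a pseudocount of 0.1, 2 with 0.5, 9 with plain ratios and 0 at 5 FPKM or more; the count at least 1.5-fold lower (3) was 6 with plain ratios. At 5 FPKM or more 18 members were left, 5 of them higher. The share of all loci at that level that were higher was not computed. Apart from plain ratios at 2-fold, shares of all loci were not computed for the other changed counts either. At 5 FPKM or more group III held only WRKY70 and WRKY54, with a median of -0.68. Group IIa held only WRKY18, so its value of -0.42 is that of a single gene. Group IIb had a median of 0.31 with plain ratios. Plain ratios, and the median over the 72 annotated WRKY genes, -0.03, were added after seeing the data. The remaining group medians and counts moved by less than 0.1 or by no more than 1.5 times. WRKY2, WRKY3 and WRKY44 were the analysed members whose sign changed, with log2 ratios of 0.06, 0.04 and 0.03 after the shift to a median of 0.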

Other observations

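The 22 annotated WRKY genes outside the 50 were mostly silent or low in both genotypes. Of these, 17 were under the filter, and WRKY59, WRKY66, WRKY67 and WRKY68 were listed at 0 in both. None of the 5 analysed ones reached 1.5-fold by log2 ratio, where 96.2% of all analysed loci did not, though WRKY45 differed by 1.82-fold as a plain ratio. WRKY16 and WRKY52 (RRS1), which join a WRKY domain to an immune receptor, were 7.28 FPKM in wild-type and 6.96 in mutant plants, and 6.89 and 6.38. WRKY19 was 3.90 and 4.04, and WRKY58 was 1.06 and 1.04. WRKY45, a relative of WRKY75 in group IIc, was 0.775 and 1.41, with a log2 ratio of 0.44, and WRKY75 itself was 0.170 and 0.461.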
